A study of Gallus gallus with 4 samples.

Results

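In chicken, 94 genes had loci covered over 75% by H3K9me3 domains in embryonic stem cells (ESCs) as well as in cultured primordial germ cells (cPGCs). They were chosen by their covered percent among 1999 gene loci, the first in Ensembl identifier order of the gene table used; genes beyond these were not analysed here. Each locus starts 500 bp before the transcription start and stops at the transcription end, on galGal5. Its covered percent was computed from the positions of the domains. Of the 1999 loci, 200 passed 75% in cPGCs (10%), 162 in ESCs (8.10%) and 95 in both (4.75%), and 1 of the 95 is not described here. Domains of any extent overlapped 28.9% of the loci in cPGCs and 37.8% in ESCs. The covered percents selected the genes and are given as a description, with no test.

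Chromatin came from cPGCs, cultured migratory germ cell precursors, and from ESCs, pluripotent cells derived in vitro from the early embryo and also cultured. It was precipitated with an antibody that recognises H3K9me3, the trimethylated form of lysine 9 on histone H3. The genotype, sex and number of donor embryos of either cell type are not given in the sources used here, and no treatment is named. There was 1 immunoprecipitated library and 1 input library per cell type, so differences between the cell types carry neither a replicate error nor a p-value. The lists held 23130 domains in cPGCs and 24491 in ESCs, as positions with no count or signal, so the depth behind them is unknown and the cell types could not be checked against marker transcripts.

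H3K9me3 is laid down by methyltransferases such as SETDB1 and the SUV39H enzymes and is bound by proteins of the HP1 family. The mark is best known from constitutive heterochromatin at repeats and around centromeres. It also lies over genes of other lineages, which are often silent in the cell that carries it. A domain over a locus does not measure transcription, which was not measured in these libraries.

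Domains covered 35 of the 94 loci entirely in both cell types. These 35 are also all such loci among the 1999 (1.75%), since full coverage passes the limit of 75%. The rule thus fixes how these shares compare, and nothing is read from them. A further 17 of the 94 loci were covered entirely in cPGCs only and 11 in ESCs only, and 31 had bare bases in each. The median coverage was 100% in cPGCs, with the lowest at 75.2%, and 98.3% in ESCs, with the lowest at 75.3%. Coverage was higher in cPGCs for 39 genes, higher in ESCs for 19 and equal for 36, of which 35 were at 100% in both. All loci of the genes together were covered at 93.9% of their bases in cPGCs and 88.0% in ESCs, and 84.6% of the bases lay in domains of both cell types.

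**Figure D1:**
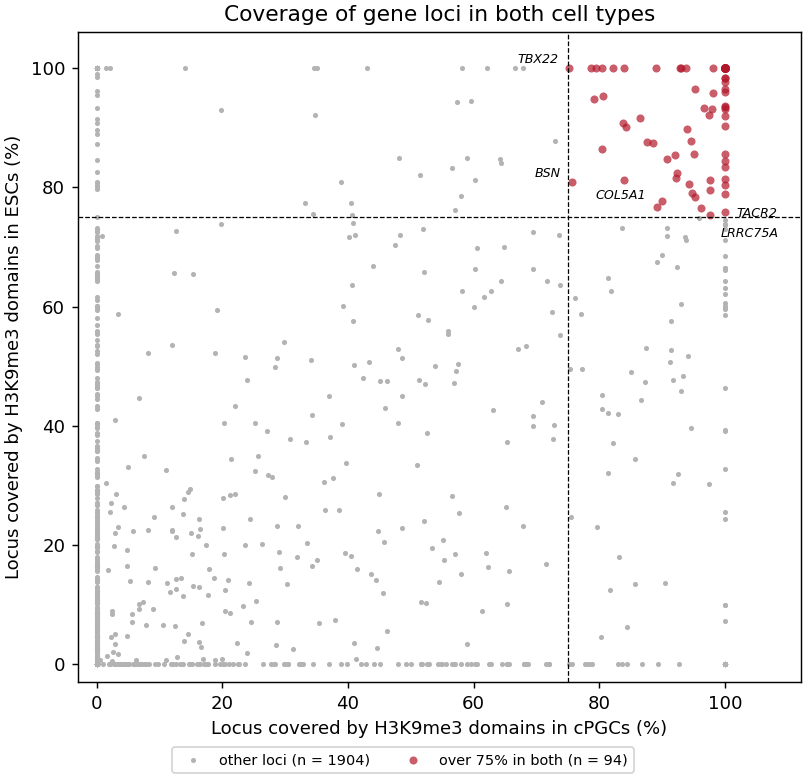
Percent of each gene locus covered by H3K9me3 domains in cPGCs (x axis) and in ESCs (y axis), 1 point per locus, with dashed lines at 75%. The 94 genes covered over 75% in both fill the upper right corner, where 35 of them coincide at 100% and 100%, and the other 1904 loci are grey.

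The 95 genes over 75% in both made up 47.5% of the genes over 75% in cPGCs and 58.6% of those in ESCs. Of the 200 genes over 75% in cPGCs, 33 had no ESC domain, 4 were covered up to 10% in ESCs, 32 from there to 50% and 36 from there to 75%. Of the 162 genes over 75% in ESCs, 38 had no cPGC domain, 2 were covered up to 10% in cPGCs, 12 from there to 50% and 15 from there to 75%. The limit of 75% cut through a continuous range. Just inside it were *TBX22* (75.2% in cPGCs against 100% in ESCs), *LRRC75A* (97.5% and 75.3%), *BSN* (75.6% and 80.9%), *TACR2* (100% and 75.9%) and *CALN1* (96.2% and 76.6%). Just outside were *NECAB2* (95.8% in cPGCs against 74.8% in ESCs), *RDM1* (100% and 74.5%), a gene described as excitatory amino acid transporter 5-like (100% and 73.8%), an unnamed gene of chromosome 27 (100% and 73.6%) and *GDPD4* (83.6% and 73.1%).

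The genes had mostly short loci, with a median length of 7955 bp against 11614 bp for all 1999 loci. The shortest spanned 1153 bp and the longest 129232 bp, and 29 were under 5 kb while 15 reached 30 kb. Among loci under 3 kb, 17 of 171 (9.94%) were genes of the set, and among loci of 50 kb or more 6 of 224 (2.68%). Of all loci, 4.75% were over 75% in both, a share that includes the 1 gene not described here. The 37 loci over 75% in cPGCs and at most 10% in ESCs had a median length of 4354 bp, and the 40 loci of the reverse kind 4220 bp. The median of the genes covered in both thus lay above that of either set, a difference that was not tested. The sets were chosen by different limits of coverage, and such limits can themselves sort loci by length.

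By roles known from chicken or mammals, the genes fell into membrane receptors, channels and transporters (16 genes in all), neural and sensory genes (15), epithelial anchoring genes (10), blood and immune cell genes (9), extracellular matrix genes (8), secreted signals (4), transcription factors and a chromatin factor (5), and metabolic or digestive enzymes (5). The other 13 named genes have ciliary, cytoskeletal or other roles, and 9 genes have no symbol and no role assigned here. The grouping was made by hand with the covered genes known. To set the groups beside comparable genes, families were also counted over all 1999 loci, covered or not, by symbols or descriptions. A first set of short symbol patterns left out many relatives, mostly ones not covered in both, so the counts below use fuller lists drawn by role from all names of the table. Both sets were made with the covered genes known, and the fuller lists moved the shares of 8 of the 10 families that they extended by over 1.5 times.

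Of 37 loci of secreted signals, 4 were over 75% in both (10.8%), beside 4.75% of all loci, and 14 had no domain. By the first patterns, which took few signals, it was 4 of 6. *GH*, the growth hormone gene, was covered at 100% in both cell types. *BMP10*, a signal of the developing heart, was covered at 100% in cPGCs against 80.4% in ESCs. *FGF18*, a growth factor of bone and lung development, was covered at 97.6% in cPGCs against 81.2% in ESCs. The widest domains over these 4 genes, with *WNT11* as the fourth, spanned 63300 to 134400 bp in cPGCs and 30000 to 57900 bp in ESCs.

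*WNT11*, a ligand of non-canonical Wnt signalling (locus on chromosome 1, 193938236 to 193964975), was covered at 97.5% in cPGCs against 79.6% in ESCs. Its cPGC domain was the widest over any of the 94 genes (chromosome 1, 193938901 to 194073300; 134400 bp). In ESCs 3 domains overlapped the locus, the widest at 46200 bp, and both lists placed the first domain start at the same position, 193938901. The related gene *WNT11B* was covered at 60.5% in cPGCs and had no domain in ESCs, and *GDF3* had none in either.

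Of 43 loci of the extracellular matrix, 9 were covered over 75% in both (20.9%) and 8 had no domain, against 7 and 0 of 14 by the first patterns. *COL6A3*, a chain of the microfibrillar type VI collagen, was covered at 96.7% in cPGCs against 93.2% in ESCs, by domains of nearly equal width (78000 and 78900 bp). *COL5A1*, a chain of the fibrillar type V collagen and the longest locus of the set at 129232 bp, was covered at 89.1% by 4 domains in cPGCs and at 76.8% by 8 domains in ESCs. The same length was thus broken into more pieces in ESCs. *LOXL2*, an enzyme that crosslinks collagen, was covered at 84.3% in cPGCs against 90.1% in ESCs. *MATN4*, a matrilin of cartilage and other matrices, was covered at 100% in both.

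Also counted in the matrix family was *TNR*, a tenascin of the nervous system (94.6% in cPGCs against 87.8% in ESCs), with the proteoglycan gene *TSKU* (92.3% and 82.5%) and the protease gene *ADAMTS15* (90.8% and 84.8%). *PGGHG*, which acts on glycosylated hydroxylysine of collagen, was covered at 95.2% and 78.5%, and *MRC2*, a collagen-binding endocytic receptor, at 83.9% and 81.2%. The family counted here also held genes covered over 75% in cPGCs only. Among these were *COL8A2* (85.7% in cPGCs against 34.4% in ESCs), *CSPG4* (100% and 66.4%) and *COL13A1* (91.7% and 30.4%). Others passed 75% in ESCs only and had no cPGC domain, namely *HAS3* (93.3% in ESCs), *OLFML3* (95.4%) and *SRGN* (100%). Over the family, 14 loci passed 75% in cPGCs and 12 in ESCs. *ADAMTS8*, the neighbour of *ADAMTS15* at 6355 bp, was covered at 64.8% in cPGCs against 69.9% in ESCs, below the limit in both.

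Of 42 loci of cell junctions, adhesion and epithelial anchoring, 11 were over 75% in both (26.2%) and 16 had no domain, against 7 and 4 of 15 by the first patterns. *PKP1* and *PKP3* encode plakophilins, which link cadherins to keratin filaments in desmosomes of stratified epithelia. Both plakophilin loci of the table were covered at 100% in both cell types. The domains over *PKP1* nearly coincided (chromosome 26, 805501 to 852000 in cPGCs and 804901 to 851700 in ESCs), with starts 600 bp and ends 300 bp apart.

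The envoplakin gene, a component of the cornified envelope, was covered at 98.0% in cPGCs against 95.9% in ESCs. Its relative *PPL*, periplakin, was covered at 82.2% in cPGCs but at 37.2% in ESCs. *ITGB4*, the integrin beta subunit of hemidesmosomes, was covered at 84.0% in cPGCs against 100% in ESCs, where 1 domain of 33900 bp held the locus. Among the remaining integrin loci, *ITGB3* was covered at 80.4% in cPGCs against 42.8% in ESCs, and *ITGAV* had no domain.

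*LAD1*, a protein of the basement membrane zone, was covered at 100% and 93.4%, *CGN*, cingulin of tight junctions, at 95.1% and 85.6%, and *GJC1*, a gap junction protein, at 80.5% and 95.3%, in cPGCs and ESCs in this order. *FAT2*, a giant cadherin of epithelia, was covered at 100% and 93.6%, and *ANKS4B*, a protein of brush border microvilli, at 100% in both. *EDMPN1*, a short gene of the epidermal differentiation complex of 1554 bp, lay inside a wide domain in both lists (chromosome 25, 1893901 to 1947600 in cPGCs and 1889701 to 1948500 in ESCs). *CDH1*, the epithelial cadherin, *CTNNA1*, *TJP3*, *CGNL1*, *KRT222* and *CLDN5*, in contrast, had no domain in either cell type, and *JAM3* was covered at 84.4% in cPGCs against 6.27% in ESCs.

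Of 62 loci of blood and immune cell genes, 9 were over 75% in both (14.5%) and 17 had no domain, against 7 and 2 of 14 by the first patterns. Of the 9, 7 were at 100% in both. *ZAP70*, the kinase downstream of the T cell receptor, was covered at 100% in both by domains of 130500 bp in cPGCs and 56400 bp in ESCs. *CD79B*, a signalling subunit of the B cell receptor, *MATK*, a kinase of blood cells, *CCL1*, a chemokine, *SIGIRR*, an inhibitor of interleukin receptor signalling, and *IL4I1*, an amino acid oxidase of immune cells, were also at 100% in both. *CD34*, a surface protein of blood progenitors and endothelium, was covered at 100% in cPGCs against 78.9% in ESCs.

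*MYO1F*, a myosin of leukocytes, was covered at 93.9% in cPGCs against 89.7% in ESCs, and *LGALS2*, a galectin, at 100% in both. Of the family, *CCL20* was covered at 100% in cPGCs with no ESC domain, and *IL22RA1* at 100% in ESCs with no cPGC domain. *LCK*, a kinase that acts with *ZAP70* in T cells, *IL10*, *IL12B* and *CARD9* were free of domains in both, and *PTPRC*, a surface phosphatase of leukocytes, was covered at 16.2% and 13.0%. Full coverage was therefore a feature of some immune genes of the table and not of most.

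Of 40 loci of receptors coupled to G proteins, 6 were over 75% in both (15%) and 13 had no domain, against 6 and 8 of 24 by the first patterns. The growth hormone releasing hormone receptor gene and *MCHR2*, a receptor for melanin-concentrating hormone, were at 100% in both. *LGR6*, a receptor for R-spondins in epithelial stem cells, was covered at 100% by 1 cPGC domain of 63900 bp and at 91.9% by 2 ESC domains. *TACR2*, a tachykinin receptor, was covered at 100% in cPGCs against 75.9% in ESCs, the largest difference in this direction among the 94 genes.

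*GRM2*, a presynaptic glutamate receptor, was covered at 80.4% in cPGCs against 100% in ESCs, and *ADORA1*, an adenosine receptor, at 86.4% and 91.6%. Relatives of these receptors stood elsewhere. *GRM4* was covered at 91.2% in cPGCs against 50.7% in ESCs, and *ADORA3* had no domain in either. A serotonin receptor gene (5-hydroxytryptamine receptor 1D) was covered at 100% in cPGCs with no ESC domain, as were *HTR4* and *PTAFR*. *HTR6*, also a serotonin receptor gene, was the reverse, at 100% in ESCs with no cPGC domain.

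Potassium channel genes were over 75% in both in 4 of 14 loci (28.6%). The fuller lists added no locus to this family, so its share rests on the first patterns. The *HCN* channel genes were counted with the other ion channels. *KCNT1*, a sodium-activated channel of neurons, was covered at 97.9% in cPGCs against 93.1% in ESCs, and *KCNS1*, a modifier subunit, at 100% and 97.6%. *KCNA10* (100% and 98.3%) and *KCNA2* (78.7% and 100%) are neighbours on chromosome 26, 28687 bp apart. No domain of either list reached over both of them. *KCNC4*, on the other side of *KCNA10*, was covered at 12.7% in each cell type.

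*CACNA1E*, a voltage-gated calcium channel of neurons, was covered at 92.2% in cPGCs against 81.6% in ESCs, as the only one of 38 loci of other ion channels (2.63%). Of 51 loci of solute carriers and like transporters, 4 were over 75% in both (7.84%), close to the 4.75% of all loci, so nothing is read from this count. They were *SLC6A17*, a transporter of neuronal vesicles, and *SLC26A9*, an anion transporter, both at 100% in both cell types, *SLC1A6*, a glutamate transporter of Purkinje cells (92.0% and 85.4%), and *STRA6*, the cellular receptor for retinol-binding protein (100% and 83.4%). *ATP8B3*, a P-type ATPase of the lipid flippase family, was at 100% in both.

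**Figure D2:**
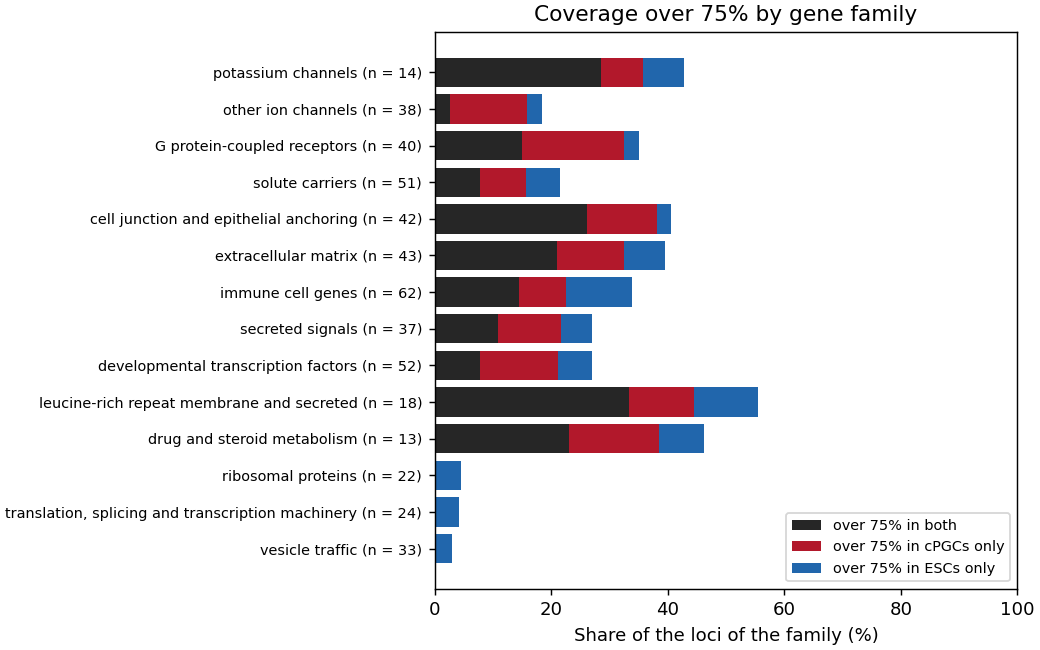
Share of the loci of each gene family (x axis, percent, from 0) covered over 75% by H3K9me3 domains in both cell types (black), in cPGCs only (red) or in ESCs only (blue), with the number of loci of the family in parentheses, by the fuller lists. The black share is 33.3% for leucine-rich repeat genes, 26.2% for junction genes and 0 for ribosomal proteins, translation, splicing and transcription machinery, and vesicle traffic. Some loci are counted in several families.

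Neural and sensory genes made up 15 of the set, with the widest domain over them between 4800 and 109500 bp in cPGCs and between 5700 and 57900 bp in ESCs. Genes with leucine-rich repeats that sit on neuronal surfaces were at 100% in both in the case of *LRRN2*, *LINGO3* and *ELFN1*. *LINGO1*, a relative of *LINGO3*, was covered at 82.9% in cPGCs against 42.0% in ESCs. Of the 18 loci of the leucine-rich repeat family, 6 were over 75% in both (33.3%) and 6 had no domain. This family is not limited to neural genes. Its covered loci include *LGR6* and *TSKU*, also counted among the receptors and the matrix genes, and *LRRC75A*. *LRRN2* lay in a domain of 50700 bp in cPGCs and of 12300 bp in ESCs, so the same full coverage came with domains of different width.

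*BSN*, the presynaptic scaffold bassoon, was covered at 75.6% by 4 domains in cPGCs and at 80.9% by 3 domains in ESCs. *CALN1*, a neuronal calcium-binding protein with a locus of 99718 bp on chromosome 19, was covered at 96.2% by 2 domains in cPGCs and at 76.6% by 6 domains in ESCs. *ASTN1*, a protein of glia-guided neuronal migration, was covered at 89.9% and 77.7%, and *BRINP2*, its neighbour on chromosome 8, at 100% in both. *CAMK1G*, a calcium-dependent kinase, was at 100% in both.

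*CDHR1*, a photoreceptor cadherin, was covered at 94.7% in cPGCs against 79.1% in ESCs. *GUCA1A*, which activates guanylate cyclase in photoreceptors, was covered at 100% and 93.1%. *IGSF9B*, an adhesion protein of inhibitory synapses, was covered at 100% and 85.6%, *SRRM3*, a splicing regulator of neurons, at 100% and 96.5%, *TMEM132E*, a gene needed for hearing in mammals, at 79.1% and 94.8%, and *SARM1*, which drives axon degeneration, at 79.5% and 100%.

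Among the 5 transcription and chromatin factors of the set, ESC coverage was higher than cPGC coverage with 1 exception. *MEOX1*, a homeobox gene of somites, was covered at 93.8% in cPGCs against 100% in ESCs. *TBX22*, a T-box gene of palate development, was covered at 75.2% in cPGCs against 100% in ESCs, the largest difference in this direction among the 94 genes. *RBPJL*, a pancreatic transcription factor, was covered at 83.8% and 90.8%. *HNF4A*, a regulator of liver and gut, was the exception, with 100% in cPGCs against 81.4% in ESCs. *LRIF1*, which in human cells binds HP1 proteins, was covered at 82.2% and 100%.

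Of 52 loci of developmental transcription factors, 4 were over 75% in both (7.69%) and 16 had no domain, among them *SOX9* and *LHX9*, against 3 and 7 of 15 by the first patterns. Over these 52 loci, 11 passed 75% in cPGCs and 7 in ESCs, whereas the median coverage was 10.7% in cPGCs and 15.0% in ESCs. These measures differ in direction, so no direction is read for the family, in which *LRIF1* is not counted. The pattern also took *LHX4-AS1*, an antisense RNA. The share is near the 4.75% of all loci, and nothing is read from it.

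Of the enzymes, *CYP1A2*, a cytochrome P450 that oxidises aromatic compounds, was covered at 88.9% in cPGCs against 100% in ESCs. Its neighbour *CYP1A1*, 975 bp away, had no cPGC domain but lay entirely under an ESC domain. The ESC domain reached over the pair, whereas the cPGC domain stopped inside the locus of *CYP1A2*. *UGT1A1*, a glucuronosyltransferase, was covered at 100% and 84.5%.

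The flavin containing monooxygenase 5 gene was covered at 92.9% in cPGCs against 100% in ESCs. A gene described as a relative of it starts 148 bp away and was covered at 64.3% in each. The N-acylsphingosine amidohydrolase 2 gene, a ceramidase, and the progastricsin gene, which encodes a stomach protease, were at 100% in both. Of 13 loci of drug and steroid metabolism, 3 were over 75% in both (23.1%) and 4 had no domain, against 3 and 0 of 7 by the first patterns. Near-identical copies can lose reads when only unique alignments are kept, and this was not tested.

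The remaining named genes have other roles. *HYDIN*, a protein of motile cilia with a locus of 104187 bp, was covered at 95.2% by 3 domains in cPGCs and at 96.5% by 2 domains in ESCs, 1 of which was the widest ESC domain over the set at 82200 bp. *NPHP4*, of the ciliary transition zone, was covered at 97.4% and 92.2%. *IFITM5*, a gene of bone-forming cells, and *ARAP3*, a regulator of small GTPases in endothelium, were at 100% in both. *FCHSD1*, *FHOD1*, *SH3BP4*, *TSPAN15*, *CPNE7*, *LZTS1*, *RASL10B*, *LRRC75A* and the cryptochrome gene *CRY4* were covered between 80.3% and 100% in cPGCs and between 75.3% and 100% in ESCs. Of the genes without symbol, the 2 described as epididymal protein-like and as uncharacterized LOC112533211 and 6 of the 7 without description were at 100% in both.

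Families of general cell functions were also counted, by name patterns only, so the vesicle list can hold genes of other roles or of few cell types. None of 22 ribosomal protein loci, of 24 loci of translation, splicing and transcription machinery or of 33 vesicle traffic loci was covered over 75% in both, beside 4.75% of all loci. At these family sizes that share amounts to very few loci, so the absence of such genes is not read as a difference. No domain overlapped 90.9% of the ribosomal protein loci, 79.2% of the machinery loci and 57.6% of the vesicle loci, against 57.8% of all loci outside the set. The vesicle loci thus lay at the level of the other loci. Among the machinery and vesicle loci, *LSM10* was covered at 100% in ESCs with no cPGC domain, and *RAB17* at 84.9% in ESCs and 48.2% in cPGCs. The family counts describe the table and are no independent evidence.

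The domains over the genes were wide in both lists. The widest domain over a gene had a median width of 21150 bp in cPGCs and 14700 bp in ESCs, beside 9000 and 6300 bp for all domains of each list. A domain that covers most of a locus has to be nearly as long as the locus, so the rule itself sets part of this width. The widths also depend on where domains are split: with domains 3000 bp or less apart joined, and genes chosen anew, the medians were 30300 bp in cPGCs and 27600 bp in ESCs, much nearer to each other. In cPGCs 48 genes had a domain of at least 20 kb over them and 24 one of at least 50 kb. In ESCs the numbers were 36 and 9.

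The widest cPGC domain was wider than the widest ESC domain for 60 genes and narrower for 34, and with the same joining for 56 and 38 of these 94 genes. The ratio of the widths, cPGCs to ESCs, had a median of 1.28, and its middle range from the first to the third quartile was 0.860 to 2.22. It was at least 2 for 27 genes and at most 0.5 for 8. At *MYO1F* the ratio was 10.6, with 130500 bp in cPGCs and 12300 bp in ESCs. At *LGALS2* it was 9.45, with 87900 and 9300 bp. At *CRY4* it was 0.218, with 6600 and 30300 bp. That cPGC domain starts at 1080001, shortly after the end of the one before it at 1077900, so the joining at 3000 bp would merge them. High coverage in both cell types, which the rule required, thus went with listed domains of very different extent around some loci.

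**Figure D3:**
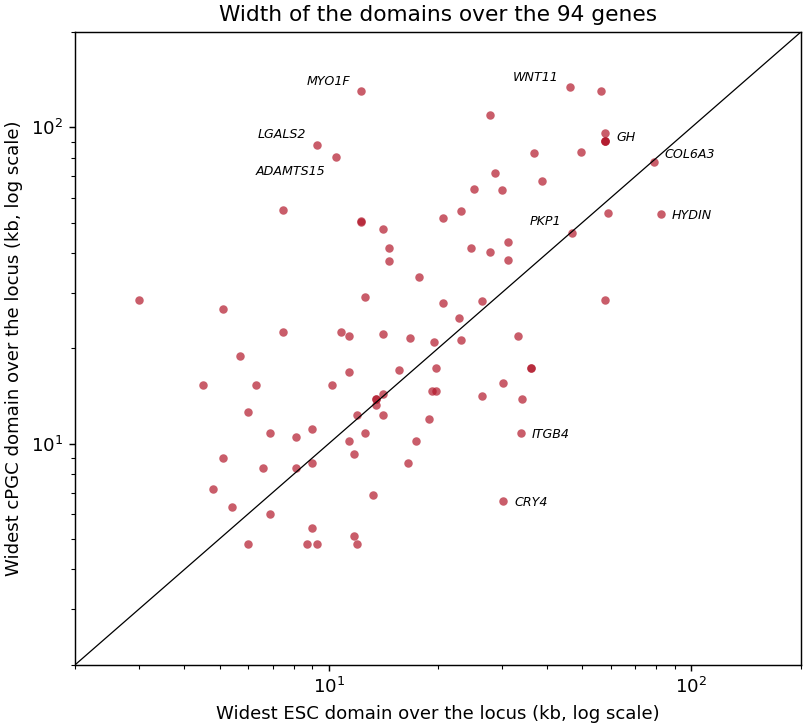
Width in kb of the widest ESC domain (x axis, log scale) and the widest cPGC domain (y axis, log scale) over each of the 94 genes, 1 point per gene, with the line of equal widths. Points lie above the line for 60 genes and below it for 34, and *MYO1F*, *LGALS2* and *ADAMTS15* are far above it.

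A single domain reached all covered bases for 81 genes in cPGCs and 76 in ESCs, and the whole locus lay inside 1 domain for 52 and 46. In cPGCs 10 genes had 2 domains and 3 had 3 or more. In ESCs 8 had 2 domains and 10 had 3 or more. Of the loci with bare bases, 35 of 42 in cPGCs and 37 of 48 in ESCs were bare at 1 end only. The bare ends could not be assigned to the promoter, since the strand of the loci was not used here.

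The genes lay on 23 of the 28 chromosomes that carried loci. Chromosomes 11 to 28, mostly small microchromosomes, held 67 of the genes (71.3%) and 77.0% of all loci. The genes made up 11.6% of the loci on chromosomes 1 to 5 (10 of 86), 4.55% on chromosomes 6 to 10 (17 of 374) and 4.35% on chromosomes 11 to 28 (67 of 1539). The 1999 loci are only the first in identifier order, and 4.30% of them lie on chromosomes 1 to 5. These shares thus describe the loci used and not the genome. Chromosome 26 held the most, with 17 of its 150 loci (11.3%). Chromosomes 15 and 23 held none, with 89 and 117 loci, and so did chromosomes 2, 3 and 9, with only 1, 6 and 44 loci.

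Of the 94 genes, 37 had another of them within 100 kb, in 15 groups of 2 to 4. A like share was not counted over all loci, which lie close together. A locus outside the set lay within 100 kb of 90 of the 94 genes. The count of 37 is therefore not read as clustering of the covered genes. Neighbouring genes under 1 domain are not separate observations of the mark. In cPGCs 8 domains and in ESCs 7 domains reached over 2 or more of the genes. The 94 genes were overlapped by 103 different domains in cPGCs and 123 in ESCs.

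On chromosome 27, *GH*, *CD79B* and the growth hormone releasing hormone receptor gene lay under a single domain in each list. The cPGC domain spanned 90900 bp (1776901 to 1867800) and the ESC domain, inside it, 57900 bp (1784101 to 1842000). All bases from the start of *GH* to the end of the receptor gene, 53175 bp, were covered in both. *RDM1*, whose locus overlaps the start of *GH*, was covered at 100% in cPGCs against 74.5% in ESCs, where the domain began inside it.

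On chromosome 5, *SIGIRR*, *PKP3*, *IFITM5* and *PGGHG* lay within 57678 bp. *SIGIRR* and *PKP3*, 1190 bp apart, shared a domain of 17400 bp in cPGCs and of 36000 bp in ESCs. *IFITM5* and *PGGHG* shared a cPGC domain of 15300 bp and an ESC domain of 4500 bp. Between these pairs, *B4GALNT4* was covered at 40.8% in cPGCs against 57.6% in ESCs, and *IFITM1* at 40.8% and 74.1%. The stretch as a whole was covered at 68.0% in cPGCs against 79.2% in ESCs, so here the ESC list held more.

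On chromosome 20, *RBPJL*, *MATN4* and *KCNS1* lay within 34054 bp, under 3 domains in each list that covered 71.7% in cPGCs against 69.7% in ESCs. On chromosome 28, *MYO1F* and *ZAP70* shared a cPGC domain of 130500 bp, whereas 3 ESC domains covered 80.9% of the stretch between their outer ends. On chromosome 26, *CAMK1G* and *GUCA1A* lay 71816 bp apart, in a stretch covered at 74.2% in cPGCs against 16.5% in ESCs. *GUCA1B*, which lies 3425 bp before *GUCA1A*, was covered at 100% in cPGCs and had no ESC domain. The ESC domain over *GUCA1A* spanned 5700 bp and began inside the locus of that gene, as the maps of these groups show.

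**Figure D4:**
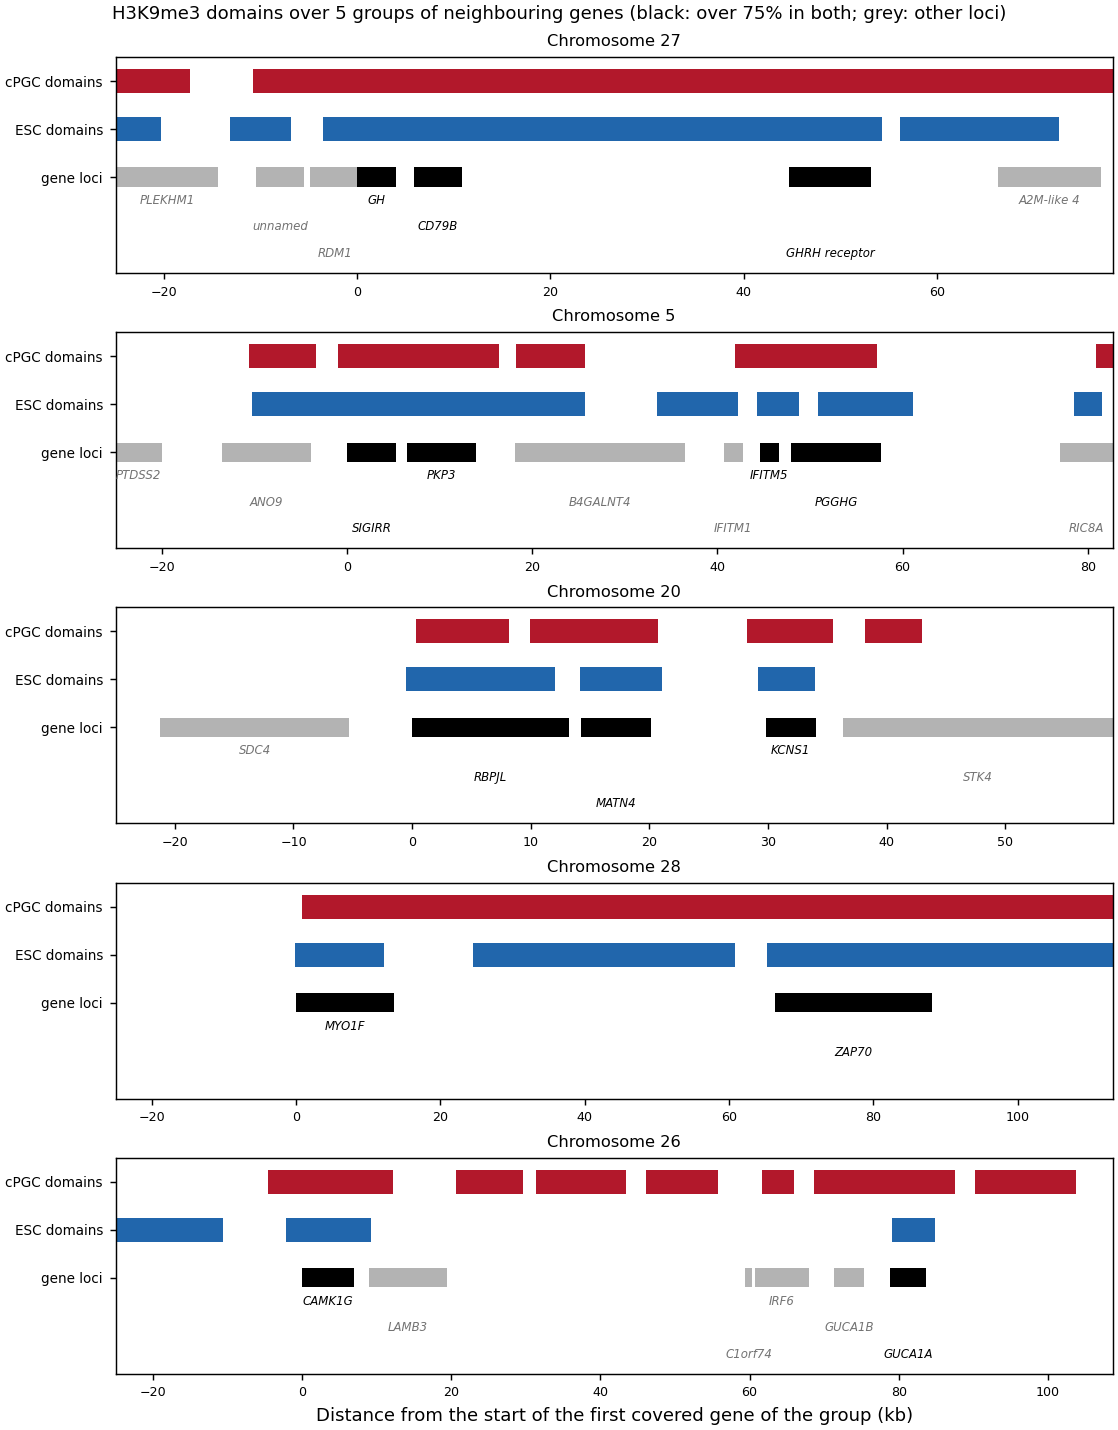
H3K9me3 domains of cPGCs (red) and ESCs (blue) and gene loci (black for genes covered over 75% in both, grey for other loci of the table) around 5 groups of neighbouring genes, by distance in kb from the start of the first covered gene of the group. Bars are cut 25 kb outside each group. A single domain of each list spans *GH*, *CD79B* and the growth hormone releasing hormone (GHRH) receptor gene, whereas the cPGC domain over *MYO1F* and *ZAP70* faces 3 ESC domains.

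The other groups were smaller. *FCHSD1* and *ARAP3* on chromosome 13 shared a cPGC domain of 41700 bp, and a gene between them, described as proteinase-activated receptor 2-like, was covered at 100% in cPGCs against 66.4% in ESCs. *TACR2* and *TSPAN15* on chromosome 6 shared an ESC domain of 14100 bp but no cPGC domain, and *BRINP2* and *ASTN1* on chromosome 8 likewise shared only an ESC domain, of 57900 bp. *LAD1* and *PKP1* on chromosome 26 were separated by *TNNT2*, covered at 44.5% in cPGCs against 14.2% in ESCs. *ADORA1* and *LRIF1* on the same chromosome were 70790 bp apart, and of the loci between them *CEPT1* and *DENND2D* were free of domains whereas *MYBPH* was covered at 38.9% and 80.9%.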

How the data were processed

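Per the labels and the methods of the study, the paired reads of each cell type (1 immunoprecipitated library, 1 input) were aligned with Bowtie 2 to galGal5 and kept at a mapping quality of at least 30. MACS2 broad peaks and SICER islands (window 300 bp, gap 1500 bp) gave the domains on autosomes. The deposited values are domain starts and ends, counted from 0; 1 was added to starts for printing, and to ends before use. Unique alignment leaves repeats and near-identical copies underrepresented, and joining windows sets the smallest gaps.

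Locus positions, symbols and descriptions were taken as annotation from the study's gene table, which names 1999 genes in the part used, on 28 chromosomes. No expression value was used. Coverage, widths and distances were calculated in pandas 2.3.3 and numpy 2.4.6 under Python 3.11.15, intervals in scipy 1.17.1 and plots in matplotlib 3.10.9. RefSeq's gene table of GRCg7b was matched by symbol (78 of 81) to check gene order. The routines were tested on simulated domains, and 5 of 5 checks returned the simulated answer. No sequence was available for use here, so the planned promoter description was not made.

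The genes, role groups and families were chosen with earlier results of these data known. Every gene with a symbol or description is named, and fuller values are given for those near the limit, with the largest differences, the longest loci, the widest common domains and close neighbours. No test was made, since there is 1 library of each kind. Families were first counted by symbol patterns, and fuller lists by role were added after seeing the data. Alternatives changed the shortest domain used, the joining of domains, the limit, the locus ends, the distance between neighbours, the chromosome class and the definition of a single domain.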

Additional observations from a re-analysis of the deposited data

How the results depend on the processing

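Of 71 alternative values, 50 stayed within 1.5 times the first count or family share, or within the 95% interval of the reported share (Wilson) or median (order statistics), intervals that treat genes as independent. With a limit of 50% in both, 170 genes entered, 86 of them covered more in cPGCs, 140 in a single domain in cPGCs and 123 in ESCs, and 88 with a neighbour within 100 kb. With 90%, these numbers were 54 genes, 14, 52 (cPGCs only) and 19 neighbours. Requiring the whole locus inside 1 domain gave 52 genes in cPGCs and 46 in ESCs. Joining domains 3000 bp or less apart gave a median widest domain of 30300 bp in cPGCs and 27600 bp in ESCs. The fuller family lists and the joined widths of the same 94 genes were chosen after seeing the data, and they account for 8 of the 21 values that moved, all of them family shares that became smaller. A minimum width of 3000 or 5000 bp, or removing 500 bp from both locus ends, moved none of the results past these bounds. No paired analysis was possible because each cell type has 1 immunoprecipitated library, and leaving out a replicate was likewise not possible. The depth of the libraries is unknown, so a bare stretch cannot be told apart from one enriched below the calling threshold.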

Other observations

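Around the 94 genes, the nearest other locus of the table on each side within 100 kb was looked up, which gave 126 different loci. Of these, 46 (36.5%) had no domain in either cell type, against 57.8% of the 1904 other loci. In cPGCs 13 of the 126 (10.3%) were covered over 75% and in ESCs 11 (8.73%). The shares of all loci (10% and 8.10%) include the 95 loci over 75% in both, which could not be among these neighbours. Over the other 1904 loci alone the shares are lower. The 126 loci thus passed 75% more often than the other loci. Some of those over 75% in cPGCs lay under the same cPGC domain as a gene of the set. Examples are *RDM1*, *GUCA1B* and the proteinase-activated receptor 2-like gene. Such domains had already served to select the set, so the rule itself sets part of this difference, which was not tested. Coverage could change sharply between neighbours. *HSPB1*, a small heat shock gene 2285 bp from *SRRM3*, was covered at 100% in cPGCs against 32.8% in ESCs. *GALK1*, a galactokinase gene 1346 bp from *ITGB4*, was covered at 14.1% in cPGCs against 100% in ESCs. *PHGDH*, an enzyme of serine synthesis near the flavin containing monooxygenase 5 gene, had no cPGC domain and was covered at 89.6% in ESCs. These neighbours were named after their values were seen.

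The ends of the domains seldom coincided between the cell types. Among the 71 genes with 1 domain in each list, 16 (22.5%) had a domain start or end within 300 bp in both lists. That distance is the window of the island caller. Of all 18291 overlapping pairs of domains, 17.4% had such a start or end. The first share counts genes, some of which lie under the same pair of domains, so the units of these shares differ. For 2 of the 71 genes, *IL4I1* on chromosome 16 and *MATK* on chromosome 28, both ends lay within 300 bp. The *MATK* domain ran from 947101 to 955500 in cPGCs and to 955200 in ESCs with the same start. The loci of *LRIF1* and *CRY4* on chromosome 26 overlap by 1325 bp and lie under the same ESC domain of 30300 bp, so their coverage is not independent.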
